A study of Danio rerio with 12 samples.

Results

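The mitochondrial ribosomal protein genes were taken as all genes whose zebrafish symbol starts with mrpl or mrps followed by a digit, in upper or lower case. This rule found 75 of the 32520 genes listed, 47 with the prefix mrpl, for the large subunit, and 28 with the prefix mrps, for the small subunit. All 75 passed the filter on low counts, so that every member entered the comparison of the genotypes. The symbols are given as the identifier table spells them, and a human-style spelling such as MRPL47 stands here for a zebrafish gene.

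Mitochondria carry their own ribosome, the mitoribosome, which translates the few proteins encoded by mitochondrial DNA, nearly all of them core subunits of the respiratory chain and of ATP synthase. Its RNA is transcribed inside the mitochondrion, whereas all of its proteins are encoded in the nucleus, made in the cytosol and imported. Many of these proteins descend from those of the bacterial ribosome and others have no bacterial counterpart, and human patients with recessive mutations in several of the genes, MRPS16, MRPS22 and MRPL44 among them, have defects of the respiratory chain.

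RNA of whole zebrafish larvae was sequenced at 120 hpf (hours post fertilization) in 6 elmo2-/- samples and 6 elmo2+/+ samples, each a pool of 30 larvae. The elmo2-/- larvae carried a CRISPR/Cas9 frameshift deletion in elmo2, a gene of the engulfment and cell motility family that acts with Dock proteins on the GTPase Rac. The elmo2+/+ larvae carried the wild-type gene, and the mutation was made and kept in the reporter line Tg(fli1:EGFP), in which EGFP is driven by the fli1 promoter in endothelial cells. The elmo2-/- line is 1 mutant line, and the sources do not say whether the samples came from separate clutches, so that the p-values measure the spread between these pools. The deposited values were estimated read counts and TPM (a level per transcript length, scaled to one total in every sample), and CPM (counts per sample, scaled to a common total) were computed from the counts with a scaling between samples.

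The samples were of even depth, with 20116203 to 20560518 estimated counts in elmo2-/- samples and 20245232 to 20939679 in elmo2+/+ samples. The targeted gene elmo2 (ENSDARG00000063527) measured 31.4 to 51.6 CPM in elmo2-/- samples, against 56.3 to 92.4 CPM in elmo2+/+ samples. The genotypes did not overlap, with a log2 fold change of -0.93 (SE 0.15, exact two-sided permutation p = 0.00216, the smallest that 6 against 6 samples can give), although its adjusted p in edgeR's quasi-likelihood test over 22259 genes was 0.642. Library numbers in the labels were 13 to 16, 7 and 8 in elmo2-/- samples and 1 to 6 in elmo2+/+ samples, so that anything that follows these numbers and the genotype cannot be told apart. Markers of liver, exocrine pancreas, skeletal muscle, heart, neurons, erythrocytes, intestine, skin and ionocytes that matched a listed gene were all present, as whole larvae would give. In pools of whole larvae, fewer cells of a type and less RNA per cell cannot be told apart.

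The mitochondrial ribosomal protein genes had moderate transcript levels in both genotypes. Their mean level over the 12 samples lay between 5.71 TPM for MRPL22 and 59.4 TPM for MRPS12, a 10.4-fold range, and the middle of the genes lay between 20.4 and 35.6 TPM (quartiles) around a median of 26.9 TPM. Of the 75 genes, 69 averaged at least 10 TPM and 9 at least 40 TPM. In every sample each gene was detected, with at least 78 estimated counts and at most 1431.6. The median level was 29.3 TPM for the mrpl genes and 24.3 TPM for the mrps genes. On the same per-length scale, the protein genes of the cytosolic ribosome had a median of 2264 TPM, the nuclear genes of the respiratory chain 162 TPM, the protein genes of mitochondrial DNA 5460 TPM and the mitochondrial translation factors 6.57 TPM. By these medians, the mitochondrial ribosomal protein genes stood far below their cytosolic counterparts and above the factors that work on the mitoribosome. Single factors overlapped with them, since the highest averaged 53.5 TPM.

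**Figure D1:**
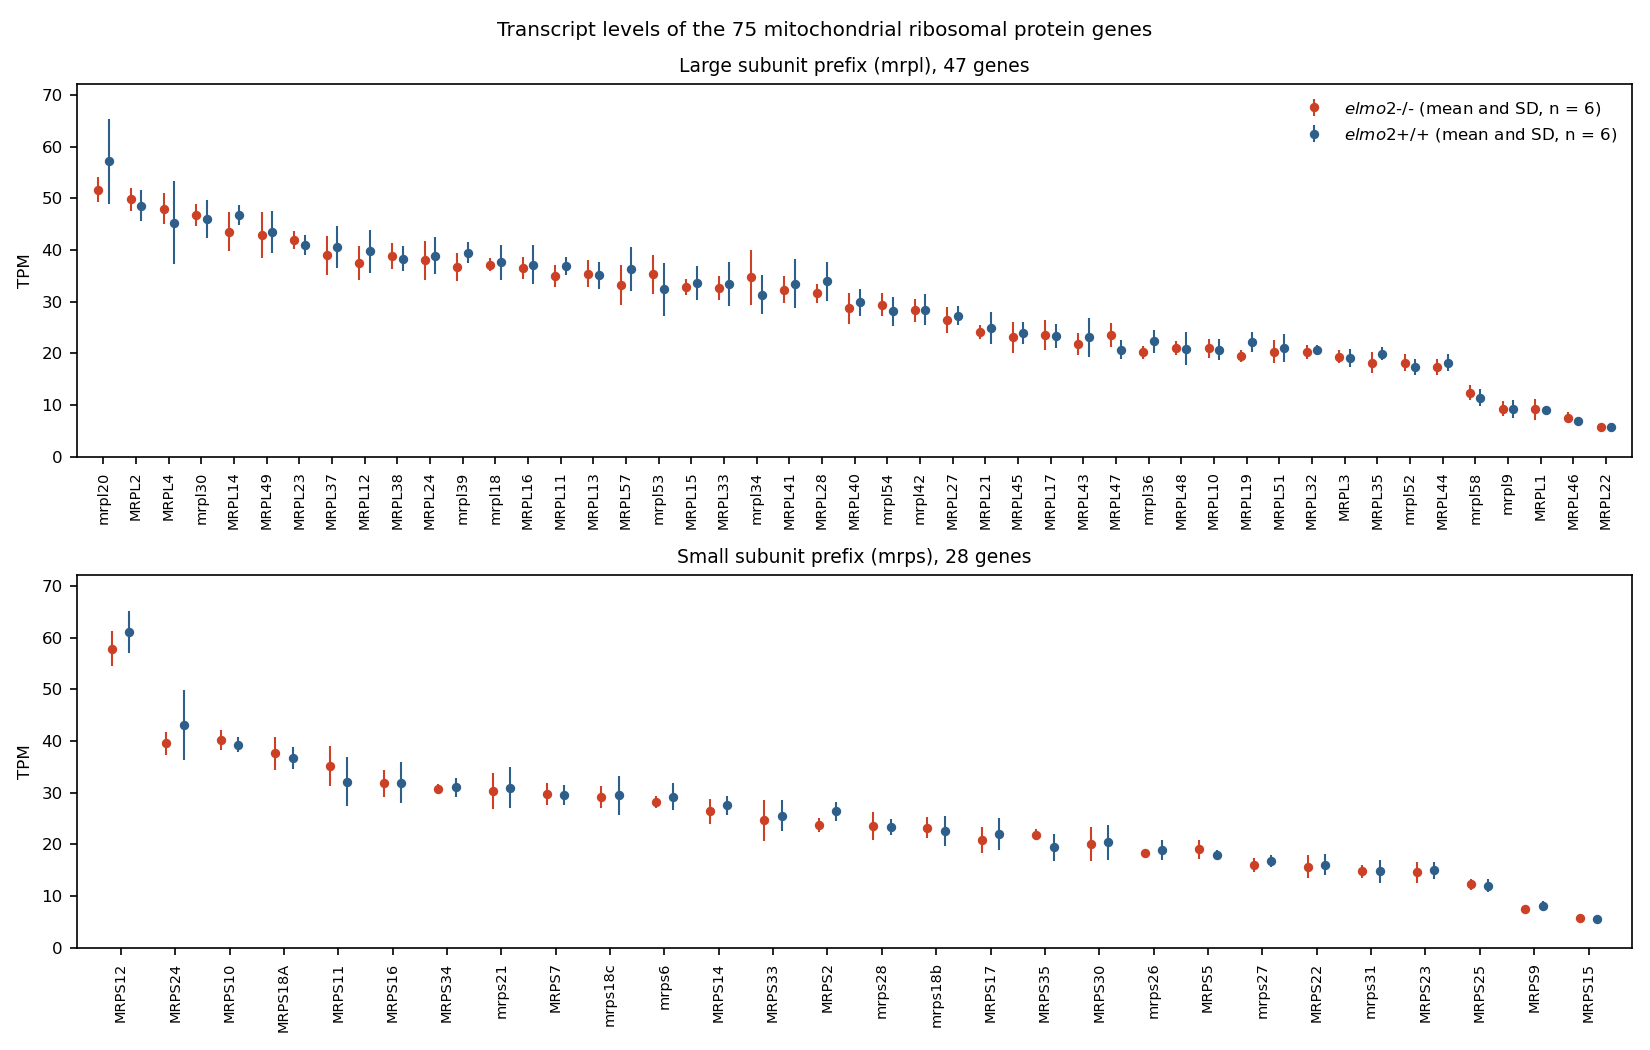
Level of each of the 75 genes in TPM (vertical axis, linear), ordered by the mean of all samples, with the 47 mrpl genes above and the 28 mrps genes below. Points are means of 6 samples and bars 1 SD, with elmo2-/- in red on the left of each pair and elmo2+/+ in blue on the right. MRPS12, mrpl20 and MRPL2 lead, and MRPL22 and MRPS15 are lowest, in both genotypes.

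At the top stood MRPS12, the counterpart of the bacterial protein of the decoding centre that is best known from streptomycin resistance. It measured 51.7, 58.5 and 60.8 TPM (lowest, median and highest) in elmo2-/- samples, against 54.6, 62.1 and 66.3 TPM in elmo2+/+ samples. MRPS12 was the highest of the 75 genes in 9 of the 12 samples. In the remaining 3 samples the highest was mrpl20, whose bacterial counterpart acts early in the assembly of the large subunit. mrpl20 measured 49.0, 51.0 and 55.6 TPM in elmo2-/- samples and 46.6, 58.4 and 65.2 TPM in elmo2+/+ samples. The ranges of both genes overlapped between the genotypes, and those of the pair overlapped with each other.

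Next among the large subunit genes came MRPL2, MRPL4 and mrpl30. MRPL2, the kin of a bacterial protein near the peptidyl transferase centre, averaged 49.8 ± 2.20 TPM in elmo2-/- samples and 48.6 ± 2.99 TPM in elmo2+/+ samples (SD, n = 6 each). MRPL4, whose bacterial kin lines the peptide exit tunnel, averaged 48.0 ± 2.94 TPM in elmo2-/- samples and 45.3 ± 8.05 TPM in elmo2+/+ samples. The gene mrpl30 averaged 46.8 ± 2.18 TPM in elmo2-/- samples and 46.1 ± 3.67 TPM in elmo2+/+ samples. The ranges of these 3 genes overlapped within each genotype, so that no order among them is shown.

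Among the genes with the prefix mrps, MRPS24, MRPS10 and MRPS18A followed MRPS12. MRPS24, the mitochondrial kin of bacterial S3 at the entry of the mRNA, averaged 39.5 ± 2.20 TPM in elmo2-/- samples and 43.1 ± 6.84 TPM in elmo2+/+ samples. MRPS10 averaged 40.3 ± 1.91 TPM in elmo2-/- samples and 39.3 ± 1.48 TPM in elmo2+/+ samples. The highest MRPS10 value, 42.8 TPM, was below every MRPS12 value. MRPS24 reached 52.9 TPM in 1 elmo2+/+ sample, above the lowest MRPS12 value of 51.7 TPM in an elmo2-/- sample.

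The lowest levels were those of MRPL22 and MRPS15. MRPL22, whose bacterial kin forms part of the tunnel wall, measured 5.34, 5.60 and 6.23 TPM in elmo2-/- samples and 5.43, 5.69 and 6.04 TPM in elmo2+/+ samples. MRPS15, the kin of a primary binder of the small ribosomal RNA in bacteria, measured 5.13, 5.88 and 6.26 TPM in elmo2-/- samples and 4.87, 5.65 and 6.32 TPM in elmo2+/+ samples. MRPL22 was among the lowest 2 genes in all 12 samples, and MRPS15 was the lowest in 7 of them. The low levels held per length only. By mean CPM, which does not divide by length, MRPL22 ranked 14 and MRPS15 ranked 15 of the 75 genes, with 26.4 CPM each, above the median gene at 17.5 CPM. The CPM of MRPL22 was 4.61 times its TPM, whereas the median gene had a ratio of 0.594, so that the rank of both genes turns on the transcript length used to compute TPM.

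MRPL46 and MRPS9 were the next lowest in their subunits. MRPL46, a protein of the central protuberance with no bacterial counterpart, averaged 7.53 ± 1.05 TPM in elmo2-/- samples and 6.85 ± 0.88 TPM in elmo2+/+ samples. MRPS9, whose bacterial kin reaches toward the tRNA in the P site, averaged 7.60 ± 0.54 TPM in elmo2-/- samples and 8.09 ± 0.90 TPM in elmo2+/+ samples. Unlike MRPL22, MRPL46 was also low by counts, with a mean of 9.93 CPM and rank 66. MRPS9 was not, with 19.5 CPM, rank 29 and a CPM 2.49 times its TPM. The largest such ratio, 5.10, was that of MRPS25, which averaged 12.2 TPM and ranked 1 by CPM with 62.0.

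The loss of elmo2 was compared with wild type gene by gene, to ask whether transcripts of the mitoribosome differ between the genotypes. No member passed the test: 0 of 75 genes had an adjusted p under 0.05 in the quasi-likelihood test of edgeR (Benjamini-Hochberg), where 0.0% of all 22259 genes tested did, and the smallest adjusted p of a member was 0.9997. At an unadjusted p under 0.05 stood 3 members, 2 of them higher in elmo2-/- (2.67% of the members, against 2.55% of all genes) and 1 lower (1.33%, against 2.13% of all genes). For 0 members were the CPM of the 6 elmo2-/- samples all above or all below those of the 6 elmo2+/+ samples, where this held for 0.198% of all genes. These shares were near the background. Without elmo2-/- replicate 4, and also without elmo2-/- replicate 5, the number of members under an unadjusted edgeR p of 0.05 was 1. Of all genes, 894 of 22394 and 704 of 22387 were under it in these fits, in that order. DESeq2 also called 0 members, with 3 at an unadjusted DESeq2 p under 0.05, where 1064 of 29386 genes were.

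The fitted differences were small. Their log2 fold changes (elmo2-/- over elmo2+/+) ran from -0.15 to 0.22, with a median of 0.013, where the median over all genes tested was -0.00061. Of the 75 members, 62 (82.7%) differed by less than 0.1 on the log2 scale, where 59.8% of all genes did, and 3 differed by more than 0.2. Among the 8693 genes whose mean CPM lay between the 5th and the 95th percentile of the members, 6018 differed by less than 0.1. The median size of the log2 fold change was 0.049 for the members, 0.065 for these 8693 genes and 0.079 for all genes tested. For 57 members the difference was smaller than its own SE, of which the median was 0.085. An interval of 2 SE on each side reached no lower than -0.36 and no higher than 0.46 for any member, which is a 0.779-fold to 1.38-fold level. These intervals cover the spread between the pools only.

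**Figure D2:**
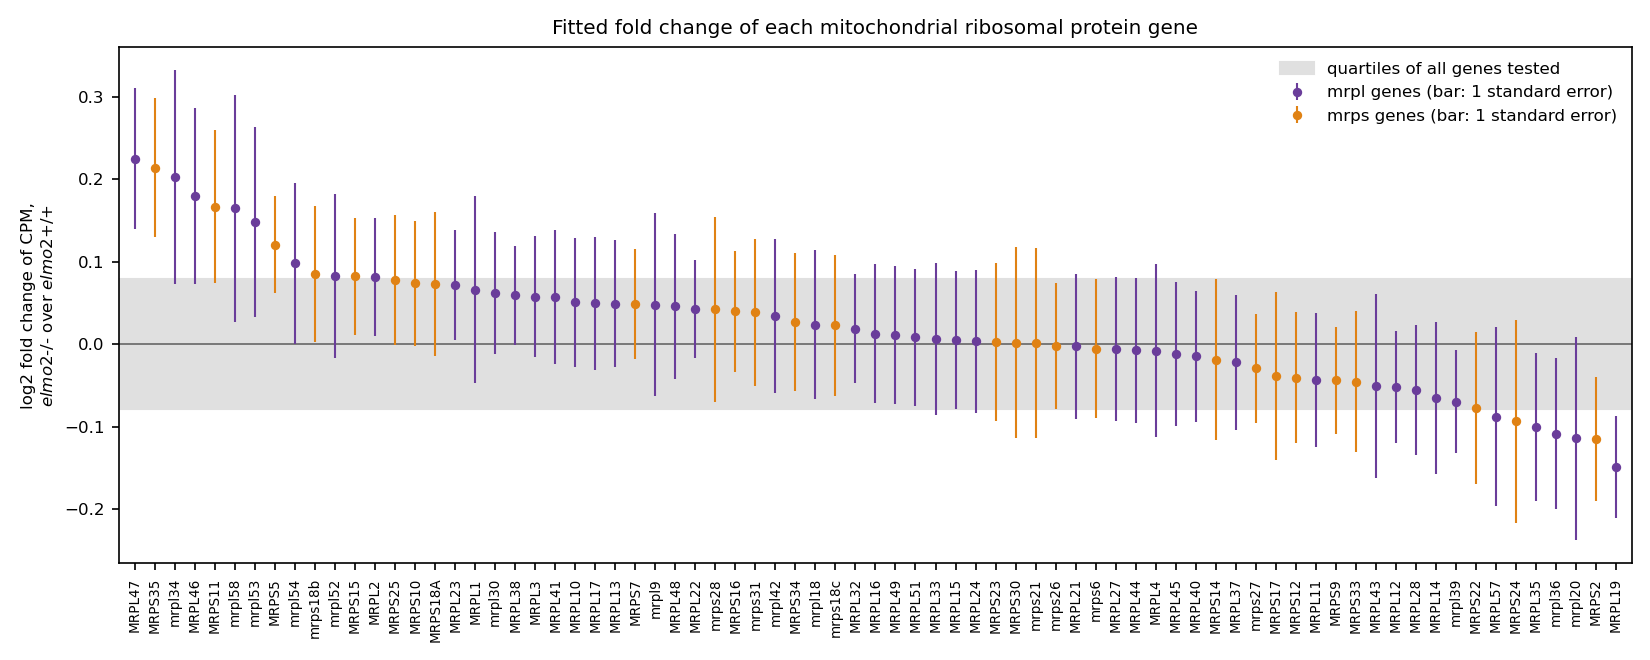
Fitted log2 fold change of CPM (elmo2-/- over elmo2+/+, vertical axis) of each of the 75 genes, ordered from highest to lowest, with mrpl genes in purple and mrps genes in orange. Bars are 1 SE and the grey band spans the quartiles of all genes tested. MRPL47 (0.22) and MRPL19 (-0.15) mark the ends, and 57 of the 75 differences are smaller than their SE.

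The direction of so small a difference depended on the scaling. By CPM with TMM scaling 46 members were higher and 29 lower in elmo2-/-, whereas by mean TPM 29 were higher and 46 lower. With library size as the only scaling, 36 were higher and 39 lower. The whole table moved with the scaling. Of all genes tested, 49.8% were higher with TMM scaling, 43.6% with library size only and 38.2% in limma on log2(TPM + 1). The median log2 fold change of the members was 0.013, -0.0043 and -0.023 in these fits, and that of all genes -0.00061, -0.019 and -0.029. Leaving out 1 sample at a time gave between 34 and 60 higher members, with 34 and a median of -0.013 without elmo2+/+ replicate 5. The TPM of all 75 genes summed to 2059 ± 59.6 in elmo2-/- samples and 2089 ± 133 in elmo2+/+ samples (SD, n = 6 each), a ratio of 0.986. The summed CPM was 1449 ± 76.5 in elmo2-/- samples and 1431 ± 108 in elmo2+/+ samples, a ratio of 1.01. Both gaps were smaller than the SD within either genotype. Together the 75 genes held 0.206% of all TPM in elmo2-/- samples and 0.209% in elmo2+/+ samples.

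The balance between the prefixes differed by less than its spread. Summed TPM of the mrpl genes was 1.95 ± 0.041 times that of the mrps genes in elmo2-/- samples and 1.95 ± 0.028 times in elmo2+/+ samples. Of the 47 mrpl genes, 29 were higher and 18 lower in elmo2-/- by CPM, with a median log2 fold change of 0.013. Of the 28 mrps genes, 17 were higher and 11 lower, with a median of 0.013. On log2(TPM + 1) both majorities turned, with 20 mrpl genes higher and 27 lower, and 12 mrps genes higher and 16 lower. Of all genes, 38.2% were higher on that scale. The genes were also grouped by descent and by place in the ribosome, from what is known of mammalian and bacterial ribosomes, and their counts of higher and lower genes are given by CPM with TMM scaling, with the count in limma on log2(TPM + 1) beside them where the majority turned.

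Apart from the 3 genes of the MRPS18 family, which are given below, 29 large subunit genes have kin in the bacterial ribosome. Of these, 18 were higher and 11 lower in elmo2-/- by CPM, with a median log2 fold change of 0.013. On log2(TPM + 1) 12 were higher and 17 lower. A further 19 large subunit genes, MRPS30 among them despite its prefix, have no kin in the bacterial ribosome. Of these 19, 12 were higher and 7 lower, with a median of 0.011, against 8 higher and 11 lower on log2(TPM + 1). In the small subunit, again without the MRPS18 family, 8 of 15 genes with such kin and 5 of 9 without were higher. Their medians were 0.0012 and 0.0025, and 7 and 3 were higher on log2(TPM + 1). None of these 4 groups had a member with an adjusted p under 0.05.

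MRPL47 had the smallest edgeR p of all members, whereas by the exact permutation test MRPL19 and MRPS5 had smaller values. It is the kin of bacterial L29, which sits by the exit of the peptide tunnel. MRPL47 (ENSDARG00000075743) measured 11.9, 13.99 and 16.7 CPM (lowest, median and highest) in elmo2-/- samples, against 10.9, 12.3 and 13.5 CPM in elmo2+/+ samples. The genotypes overlapped, and 5 of the 6 elmo2-/- samples lay above the median of the elmo2+/+ samples. The log2 fold change was 0.22 (SE 0.085), with an unadjusted edgeR p of 0.0197, an exact permutation p of 0.0238 and an adjusted edgeR p of 0.9997. Leaving out 1 sample at a time moved the unadjusted edgeR p between 0.0050 and 0.055. The log2 fold change of MRPL47 was 0.089 in elmo2-/- library numbers 13 to 16 against elmo2+/+ replicates 1 to 4 and 0.49 in library numbers 7 and 8 against elmo2+/+ replicates 5 and 6.

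MRPS35, a small subunit protein without kin in the bacterial ribosome, followed by edgeR p. MRPS35 (ENSDARG00000038456) measured 21.3, 24.9 and 26.9 CPM in elmo2-/- samples and 18.0, 21.3 and 24.7 CPM in elmo2+/+ samples. Its lowest elmo2-/- value was that of replicate 1 and its highest elmo2+/+ value that of replicate 3, and these kept the genotypes from separating. The log2 fold change was 0.21 (SE 0.084), with an unadjusted edgeR p of 0.0232, an exact permutation p of 0.0260 and an adjusted edgeR p of 0.9997. Leaving out 1 sample at a time, its unadjusted edgeR p lay between 0.0074 and 0.056. By the same library numbers the log2 fold change of MRPS35 was 0.13 and 0.39.

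MRPL19, the kin of bacterial L19 at the interface of the subunits, was the member with the lowest fold change. MRPL19 (ENSDARG00000011885) measured 17.0, 17.5 and 18.4 CPM in elmo2-/- samples and 18.0, 19.1 and 21.8 CPM in elmo2+/+ samples. All 6 elmo2-/- values lay below the median of the elmo2+/+ samples, yet the ranges met between 18.0 and 18.4 CPM. The log2 fold change was -0.15 (SE 0.062), with an unadjusted edgeR p of 0.0307, an exact permutation p of 0.00649 and an adjusted edgeR p of 0.9997. Its elmo2-/- values were close together, and those of elmo2+/+ replicates 3 and 4 were the highest of all samples. Leaving out 1 sample at a time gave an unadjusted edgeR p between 0.019 and 0.076. By library numbers 13 to 16 and 7 and 8, set against the elmo2+/+ samples as above, the log2 fold change of MRPL19 was -0.20 and -0.053.

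**Figure D3:**
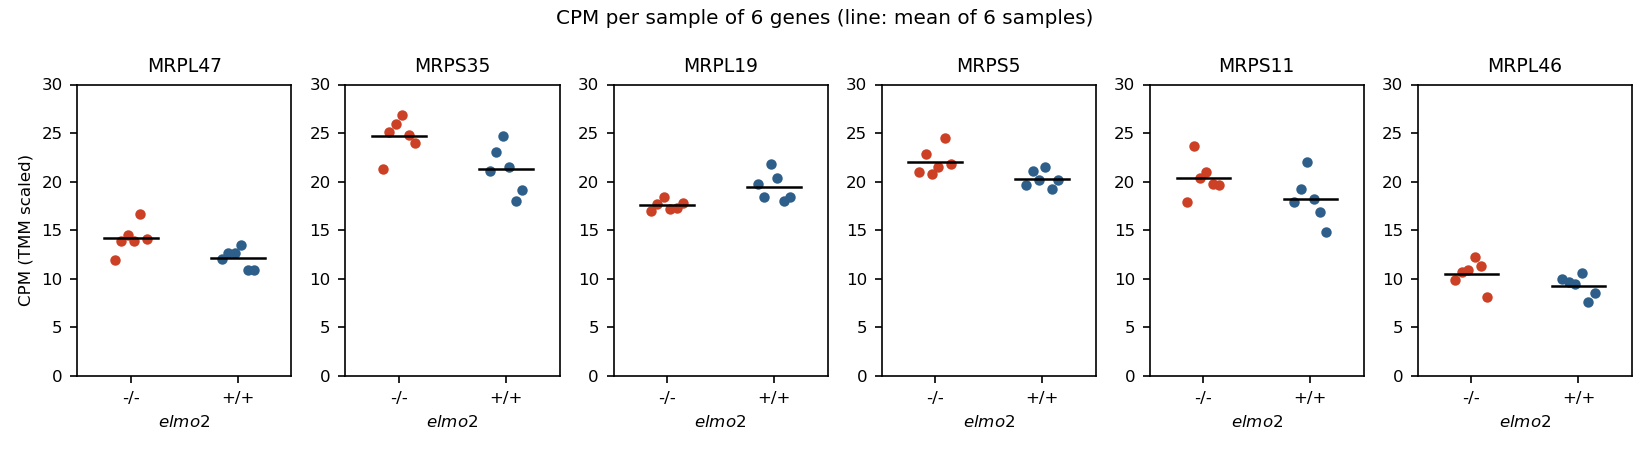
CPM of each sample (vertical axis, linear, from 0) for MRPL47, MRPS35, MRPL19, MRPS5, MRPS11 and MRPL46, with the 6 elmo2-/- samples in red on the left and the 6 elmo2+/+ samples in blue on the right of each panel. Horizontal lines are means of 6 samples. The genotypes overlap in every panel, with 17.0 to 18.4 CPM in elmo2-/- samples and 18.0 to 21.8 CPM in elmo2+/+ samples for MRPL19.

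Among the further genes with the smallest edgeR p, MRPS5, the kin of a bacterial protein at the path of the mRNA, measured 20.8, 21.6 and 24.5 CPM in elmo2-/- samples and 19.2, 20.2 and 21.5 CPM in elmo2+/+ samples. All 6 elmo2-/- values of MRPS5 lay above the median of the elmo2+/+ samples. Its log2 fold change was 0.12 (SE 0.059, unadjusted edgeR p = 0.0598, exact permutation p = 0.0173). MRPS2, another small subunit protein with bacterial kin, measured 20.6, 21.1 and 24.4 CPM in elmo2-/- samples and 21.6, 23.0 and 27.1 CPM in elmo2+/+ samples. For MRPS2 the log2 fold change was -0.11 (SE 0.075), and the ranges overlapped between 21.6 and 24.4 CPM.

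MRPS11 and MRPL46 are direct neighbours in the order of protein-coding genes of the RefSeq annotation (assembly GRCz12tu), the only adjacent pair among the 75 genes, and this was looked at after their values were seen. MRPS11 (ENSDARG00000075129), a protein of the small subunit platform, measured 17.9, 20.1 and 23.7 CPM in elmo2-/- samples and 14.8, 18.1 and 22.0 CPM in elmo2+/+ samples. MRPL46 (ENSDARG00000016307) measured 8.10, 10.8 and 12.3 CPM in elmo2-/- samples and 7.63, 9.60 and 10.6 CPM in elmo2+/+ samples. The log2 fold changes were 0.17 (SE 0.093) for MRPS11 and 0.18 (SE 0.11) for MRPL46. Neither passed an unadjusted p of 0.05, with edgeR p = 0.0948 for MRPS11 and 0.114 for MRPL46 (exact permutation p = 0.0974 and 0.143). The samples did not rank alike, since MRPS11 was highest in elmo2-/- replicate 2 and MRPL46 in elmo2-/- replicate 4. None of the 75 genes lay within 10 protein-coding genes of elmo2 in that order (0 members).

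The genes that varied most between samples were mrpl34, mrpl58 and mrpl20, with SDs of log2 CPM over the 12 samples of 0.25, 0.24 and 0.23, where the median member had 0.139. mrpl34, the kin of a small bacterial large subunit protein, measured 14.9, 19.5 and 25.7 CPM in elmo2-/- samples and 15.7, 17.6 and 20.4 CPM in elmo2+/+ samples. Its elmo2-/- values fell apart, with replicates 3, 4 and 6 above every elmo2+/+ sample and replicate 1 below all of them. The log2 fold change was 0.20 (SE 0.13, unadjusted edgeR p = 0.140, exact permutation p = 0.236). The gene mrpl58, also known as ICT1, is a peptidyl-tRNA hydrolase of the large subunit that frees stalled mitoribosomes in human cells. It had the lowest CPM of the members, with 3.79, 4.73 and 5.82 CPM in elmo2-/- samples and 3.58, 3.96 and 5.26 CPM in elmo2+/+ samples. Its log2 fold change was 0.16 (SE 0.14).

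For mrpl20 the CPM were 16.7, 19.8 and 22.7 in elmo2-/- samples and 16.5, 22.0 and 26.1 in elmo2+/+ samples, a log2 fold change of -0.11 (SE 0.12). In both genotypes replicates 1 and 2 were the lowest. The gene mrpl53 has no kin in the bacterial ribosome. It measured 4.72, 5.83 and 6.67 CPM in elmo2-/- samples and 4.48, 5.01 and 6.58 CPM in elmo2+/+ samples, with a log2 fold change of 0.15 (SE 0.12). Its genotypes overlapped over nearly the whole range.

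The MRPS18 family descends from 1 bacterial protein, S18, and its 3 members were all measured. In the mammalian mitoribosome the proteins of mrps18b and mrps18c sit in the small subunit, and that of MRPS18A sits in the large one. By TPM MRPS18A was the highest, with 37.6 ± 3.17 TPM in elmo2-/- samples and 36.8 ± 2.13 TPM in elmo2+/+ samples (SD, n = 6 each). mrps18c averaged 29.2 ± 2.12 TPM in elmo2-/- samples and 29.5 ± 3.82 TPM in elmo2+/+ samples, and mrps18b averaged 23.2 ± 2.08 TPM in elmo2-/- samples and 22.6 ± 2.84 TPM in elmo2+/+ samples. The lowest MRPS18A value, 34.1 TPM, exceeded the highest mrps18c value, 33.3 TPM, so that the order of these paralogs held in all samples, while mrps18b and mrps18c overlapped. By CPM the log2 fold changes were 0.073 (SE 0.087) for MRPS18A, 0.085 (SE 0.083) for mrps18b and 0.023 (SE 0.085) for mrps18c.

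The stalk of the large subunit, which recruits translation factors, is formed by the products of MRPL10, MRPL11 and MRPL12. Of these 1 was higher and 2 were lower in elmo2-/- by CPM, with a median log2 fold change of -0.044. MRPL12, the repeated protein at the tip of the stalk, which also binds the mitochondrial RNA polymerase in human cells, measured 32.8, 38.1 and 41.6 TPM in elmo2-/- samples and 35.3, 39.3 and 46.2 TPM in elmo2+/+ samples. Its log2 fold change by CPM was -0.052 (SE 0.068). The ranges of the genotypes overlapped over most of their width.

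Around the exit of the peptide tunnel, where the nascent chain meets the inner membrane, 4 of 7 genes were higher and 3 lower, with a median log2 fold change of 0.0036. MRPL45, which tethers the mammalian mitoribosome to the inner membrane, averaged 23.2 ± 3.01 TPM in elmo2-/- samples and 23.9 ± 2.15 TPM in elmo2+/+ samples. MRPL44, which has an RNase III fold, averaged 17.3 ± 1.51 TPM in elmo2-/- samples and 18.2 ± 1.65 TPM in elmo2+/+ samples. Log2 fold changes by CPM were -0.012 (SE 0.087) for MRPL45 and -0.0076 (SE 0.088) for MRPL44. In the central protuberance, which contacts the head of the small subunit, 5 of 7 genes were higher and 2 lower, with a median of 0.046. On log2(TPM + 1) the tunnel exit had 2 higher and 5 lower genes, and the central protuberance 4 higher and 3 lower.

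In the small subunit, 2 of the 5 genes of the decoding centre and mRNA path were higher and 3 lower, with a median log2 fold change of -0.041. MRPS16 averaged 31.8 ± 2.65 TPM in elmo2-/- samples and 31.9 ± 3.97 TPM in elmo2+/+ samples, and MRPS22 averaged 15.7 ± 2.24 TPM in elmo2-/- samples and 16.1 ± 1.95 TPM in elmo2+/+ samples. The log2 fold changes by CPM were 0.040 (SE 0.073) for MRPS16 and -0.077 (SE 0.093) for MRPS22. Both differences were smaller than their SE.

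TPM and counts could differ for a gene where the estimated length of its transcripts moved between samples. The ratio of estimated count to TPM, set against the median gene of the sample, varied by an SD over 0.1 on the log2 scale in 3 of 71 members with over 100 counts in every sample, MRPS33, MRPL4 and MRPL41, where 9.33% of 13595 such genes did. For MRPL4 this ratio was lower in elmo2-/- by 0.14 on average. Its mean was therefore higher in elmo2-/- by TPM, as given above, and its log2 fold change by CPM was -0.0076 (SE 0.10). MRPS22 and MRPS16 followed with SDs of 0.088 and 0.086, and for MRPS22 the ratio was lower in elmo2-/- by 0.076. The median SD of the 71 members was 0.0071, and the other 4 members were not examined for this.

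By CPM with TMM scaling, members tended to be high or low together within a sample, and this spread was larger than the difference between the genotypes. The deviation of each gene from its mean log2 CPM over the 12 samples was summarised per sample by the median over the 75 genes. In elmo2-/- replicates 1 to 6 it was -0.13, -0.030, 0.041, 0.074, 0.075 and 0.039. In elmo2+/+ replicates 1 to 6 it was -0.061, -0.035, 0.13, 0.15, -0.13 and -0.078. The lowest and the highest sample of either genotype thus lay further apart than the genotype means. These means were 0.011 in elmo2-/- and -0.0046 in elmo2+/+. By summed TPM of the members the order of the samples differed. There elmo2-/- replicate 1 held 2083 TPM, above replicates 3, 4 and 6 of its genotype (1990, 2041 and 2002 TPM). Among elmo2+/+ samples replicate 5 was lowest on both scales, with 1908 TPM.

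The count of members above their own mean was 7, 30, 45, 59, 58 and 45 of 75 in elmo2-/- replicates 1 to 6, and 24, 26, 62, 64, 5 and 18 of 75 in elmo2+/+ replicates 1 to 6. Over all genes tested, 49.6% to 52.6% were above their own mean in any sample, a share that the scaling and the centring themselves keep close to even. By this count on the CPM scale, elmo2-/- replicate 1 and elmo2+/+ replicate 5 stood lowest, and elmo2+/+ replicates 3 and 4 highest.

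**Figure D4:**
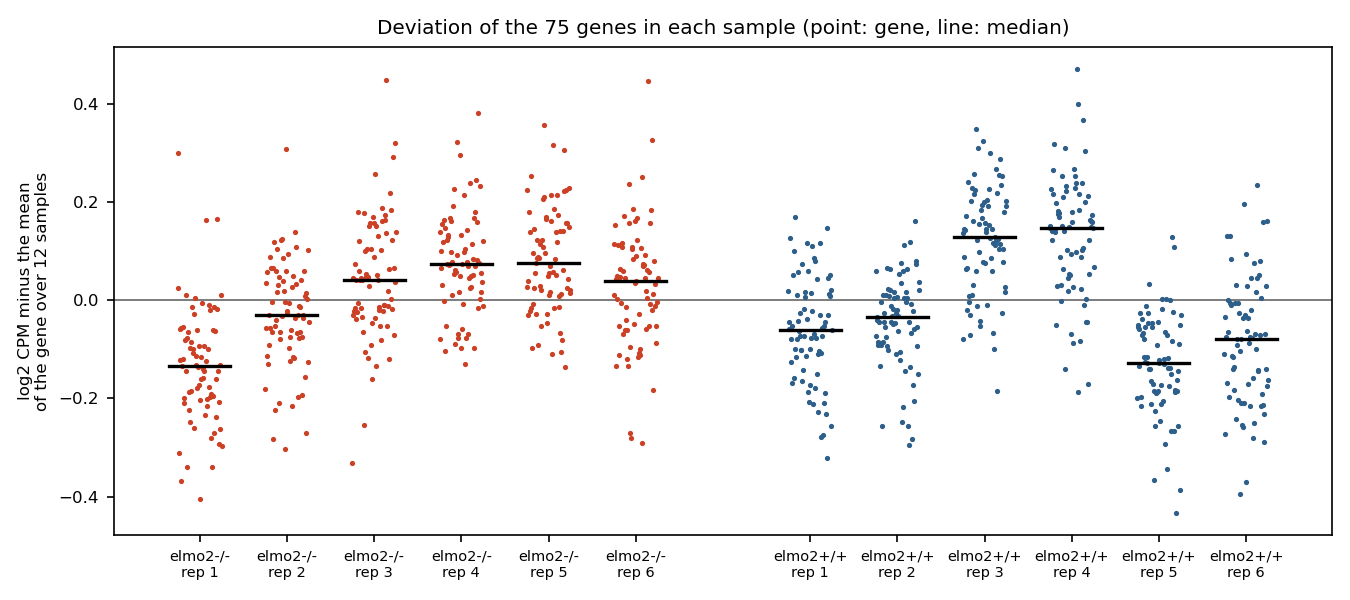
Log2 CPM of each of the 75 genes minus its mean over the 12 samples (vertical axis), by sample, with the 6 elmo2-/- samples in red on the left and the 6 elmo2+/+ samples in blue on the right. Points are genes and black lines medians. The lines run from -0.13 to 0.075 in elmo2-/- samples and from -0.13 to 0.15 in elmo2+/+ samples.

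Single members varied little. The median SD of log2 CPM over the 12 samples was 0.139 for the members, where it was 0.205 over all genes tested and 0.167 over the 8693 genes whose mean CPM lay between the 5th and the 95th percentile of the members. Between the genotypes, the SD of CPM was larger in elmo2-/- for 29 members and smaller for 46. The same count was not made over all genes. As members moved together within a sample, these counts are not separate results.

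The count of higher members differed with the samples compared. In elmo2-/- library numbers 13 to 16 against elmo2+/+ replicates 1 to 4, 19 members were higher and 56 lower, with a median log2 fold change of -0.064. In elmo2-/- library numbers 7 and 8 against elmo2+/+ replicates 5 and 6, 68 were higher and 7 lower, with a median of 0.15, and 13 members (17.3%) were higher at an unadjusted edgeR p under 0.05, where 6.17% of all genes were. In neither comparison did a member have an adjusted p under 0.05. In elmo2+/+ replicates 5 and 6 the median deviation of the members was -0.13 and -0.078, the lowest of that genotype. Members tended to be high or low together within a sample, so that these 13 are not separate results. Against all elmo2+/+ samples, elmo2-/- library numbers 13 to 16 gave 39 higher and 36 lower members, with a median of 0.0036. Library numbers 7 and 8 gave 55 higher and 20 lower against all elmo2+/+ samples, with a median of 0.068. The members thus took opposite directions only where the subsets were set against different elmo2+/+ samples. The difference between the subsets was not tested.

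By CPM with TMM scaling, the nuclear respiratory chain genes went along with the members by sample. The same median deviation was -0.20, -0.018, 0.11, 0.11, 0.093 and 0.085 in elmo2-/- replicates 1 to 6 for the 91 nuclear respiratory chain genes tested, and -0.14, -0.11, 0.12, 0.22, -0.091 and -0.14 in elmo2+/+ replicates 1 to 6. On this CPM scale its sign was that of the mitochondrial ribosomal protein genes in all 12 samples. For the 81 cytosolic ribosomal protein genes it was -0.31, -0.093, 0.15, 0.27, 0.084 and 0.20 in elmo2-/- replicates and -0.25, -0.090, -0.034, 0.092, -0.050 and 0.063 in elmo2+/+ replicates, with the opposite sign to the members in elmo2+/+ replicates 3 and 6. All lists share the libraries and their scaling. By summed TPM the lists did not go together in every sample. In elmo2-/- replicate 1 the members held 2083 TPM, above the mean of that genotype (2059 TPM). The respiratory chain genes held 25729 TPM there, below theirs (26776.5 TPM).

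**Figure D5:**
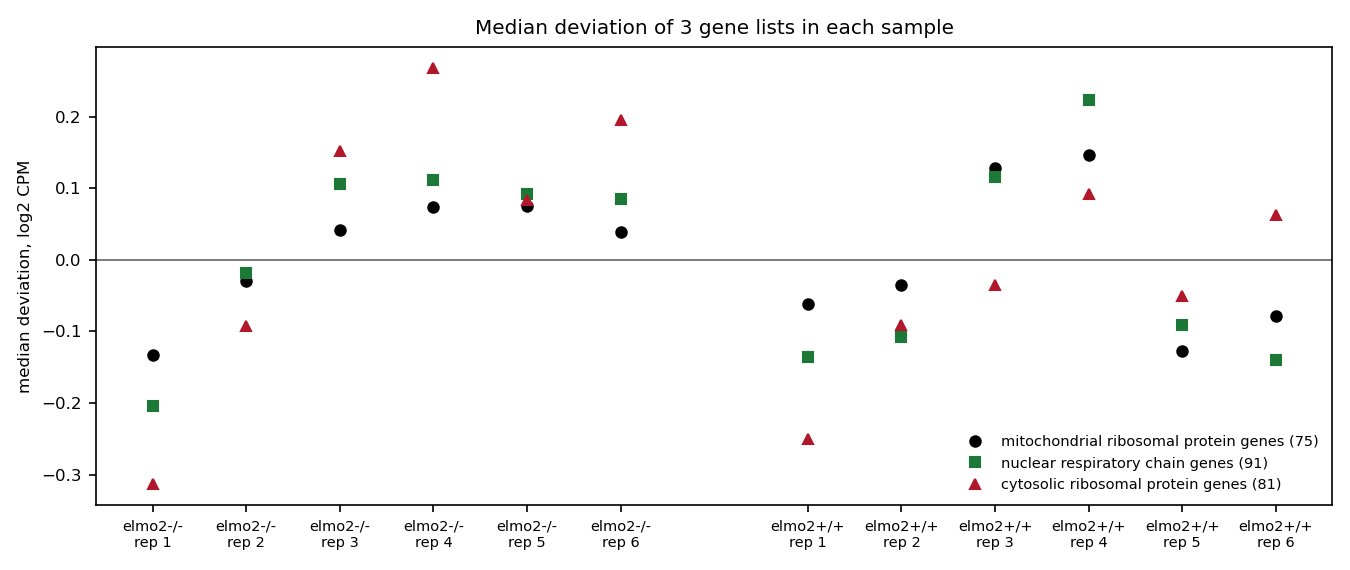
Median deviation of log2 CPM from each gene's mean over the 12 samples (vertical axis) for the 75 mitochondrial ribosomal protein genes (black circles), 91 nuclear respiratory chain genes (green squares) and 81 cytosolic ribosomal protein genes (red triangles), by sample, with elmo2-/- on the left and elmo2+/+ on the right. In elmo2-/- replicate 1 the lists stand at -0.13, -0.20 and -0.31, and in elmo2+/+ replicate 4 at 0.15, 0.22 and 0.092.

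Tissue markers also differed by sample. The summed TPM of the exocrine pancreas markers ran from 290 to 3339 in elmo2-/- samples and from 434 to 1483 in elmo2+/+ samples. It was highest in elmo2-/- replicate 1, in which the members were lowest by CPM. It was 721 in elmo2+/+ replicate 5, in which they were nearly as low by CPM. By summed TPM the members stood at 2083 in elmo2-/- replicate 1 and at 1908, their lowest, in elmo2+/+ replicate 5. The summed TPM of the liver markers ran from 2610 to 8983 in elmo2-/- samples and from 2873 to 10211 in elmo2+/+ samples. Within elmo2-/- samples it was highest in replicate 1, in which the members were lowest by CPM. Over all samples it was highest in elmo2+/+ replicate 4, in which the members were highest by CPM. By summed TPM the members stood at 2119 in that sample and were highest, at 2268, in elmo2+/+ replicate 3. Of 6 exocrine pancreas markers 3 matched a gene in the table, and 6 of 6 liver markers did. Their part in the spread of the mitochondrial ribosomal protein genes was not tested, and the other marker lists were not set beside the members.

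By genotype, the respiratory chain genes had a median log2 fold change of 0.047, with 66 of 91 higher in elmo2-/- and 1 at an unadjusted edgeR p under 0.05, NDUFS4, a subunit of complex I (0.19, unadjusted edgeR p = 0.0172, exact permutation p = 0.0216). On log2(TPM + 1) 48 of the respiratory chain genes were higher and 45 lower. For the cytosolic ribosomal protein genes the median was 0.11, with 81 of 81 higher (73 higher and 9 lower on log2(TPM + 1)) and 1 at an unadjusted edgeR p under 0.05, RPL22 (0.23, unadjusted edgeR p = 0.0212, exact permutation p = 0.0411). Neither list held a gene with an adjusted p under 0.05. The median of the mitochondrial ribosomal protein genes, 0.013, was the lowest of the 3 lists, and the difference between the lists was not tested.

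The other genes of mitochondrial translation likewise gave no call. Besides the 75 members, the mitoribosome holds subunits whose genes carry other names, and the 5 of these that were examined, DAP3, ptcd3, chchd1, AURKAIP1 and GADD45GIP1, were all higher in elmo2-/- by small amounts, with log2 fold changes of 0.010 to 0.078 and a median of 0.025, whereas on log2(TPM + 1) 2 were higher and 3 lower. DAP3, a GTP-binding small subunit protein first known from cell death, averaged 27.6 ± 2.81 TPM in elmo2-/- samples and 27.4 ± 4.61 TPM in elmo2+/+ samples. These levels lay in the range of the members.

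Of 15 mitochondrial translation factors, 8 were higher and 7 lower, with a median log2 fold change of 0.0037, and 6 were higher on log2(TPM + 1). GFM1, the elongation factor that moves the mitoribosome along the mRNA, had the smallest p of this list (log2 fold change -0.10, unadjusted edgeR p = 0.230, exact permutation p = 0.249). A list for the assembly of the mitoribosome and the modification of its RNA held 29 gene identifiers. Both identifiers of YBEY were among them, and so was MDN1, which is not particular to the mitoribosome. Of these 29, 15 were higher and 14 lower, with a median of 0.011, and 12 were higher on log2(TPM + 1). NGRN, which human cells need for the RNA of the large subunit, had the smallest p among these (0.15, unadjusted edgeR p = 0.107, exact permutation p = 0.102). No gene of either list passed even an unadjusted p of 0.05.

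The aminoacyl-tRNA synthetases of the mitochondrion, some of which also serve the cytosol, numbered 21, with 9 higher and 12 lower and a median log2 fold change of -0.020. YARS2, which charges the mitochondrial tyrosine tRNA, was the 1 gene of this list at an unadjusted edgeR p under 0.05, with 4.06 ± 0.52 TPM in elmo2-/- samples and 4.97 ± 0.70 TPM in elmo2+/+ samples (log2 fold change -0.25, unadjusted edgeR p = 0.0207, exact permutation p = 0.00866, adjusted edgeR p = 0.9997). A further list of 23 genes covered mitochondrial transcription and RNA handling. It also held genes for copying mitochondrial DNA, such as POLG, and nuclear regulators such as NRF1 and PPARGC1A. Of the 23, 8 were higher and 15 lower, with a median of -0.034. POLRMT, the RNA polymerase of the mitochondrion, had 2.90 ± 0.40 TPM in elmo2-/- samples and 3.52 ± 0.63 TPM in elmo2+/+ samples (log2 fold change -0.23, unadjusted edgeR p = 0.0232, exact permutation p = 0.0216, adjusted edgeR p = 0.9997).

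The products of the mitoribosome are encoded by the 13 protein genes of mitochondrial DNA. Of these 3 were higher and 10 lower in elmo2-/-, with a median log2 fold change of -0.040 and none at an unadjusted p under 0.05. The smallest p was that of mt-atp8, a subunit of ATP synthase (-0.17, unadjusted edgeR p = 0.0524, exact permutation p = 0.0628). Their TPM summed to 103833 ± 5226 in elmo2-/- samples and 110996 ± 7096 in elmo2+/+ samples. This gap was about as large as the SD of the elmo2+/+ samples and larger than that of the elmo2-/- samples. On log2(TPM + 1) the whole table leaned lower, with 38.2% of all genes higher and a median log2 fold change of -0.029. The median of these 13 genes on that scale was -0.081.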

How the data were processed

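Total RNA of pools of whole larvae was sequenced on a BGISEQ-500. The submitters' processing notes name Trim Galore 0.6.4, kallisto 0.4.6 and the build GRCz11. The authors deposited estimated counts per gene, which need not be whole and are not scaled, and the deposited TPM are divided by transcript length and scaled to one total. How reads of near-identical genes were divided is not given in the sources used here. A table of identifiers gave 29201 symbols.

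Estimated counts were rounded. In R 4.3.3, edgeR 4.0.16 was run with filterByExpr (minimum count 10), TMM scaling and the quasi-likelihood test on genotype, with Benjamini-Hochberg adjustment over 22259 genes. As edgeR reports none, the SE was taken as the size of the log2 fold change over the root of its F statistic. The biological coefficient of variation was 0.171. Single genes were also compared by exact two-sided permutation of log2 CPM over 924 groupings. On simulated data of 22102 genes, 95 of 100 genes with a log2 change of 1 and 100 of 100 with a change of 2 were recovered, with 15 false calls. Genes were drawn independently and many were changed at once, so that this recovery need not hold in the real data. There elmo2, at -0.93, had an adjusted edgeR p of 0.642. Changes as small as those of the members, at most 0.22, were not simulated. No samples were duplicates (at most 0.896% of genes with equal counts). Levels between genes were compared in TPM, genotypes in CPM.

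The members, lists and the rule for named genes were chosen with earlier results of these data known. Named were the 4 highest and 2 lowest genes of each prefix by TPM, the 10 smallest p, paralogs, the 3 with the highest SD and 6 genes chosen for their roles, and the smallest p of each list. Alternatives were DESeq2 1.42.0, RLE or library size scaling, 2 other filters on low counts, limma 3.58.1 on log-transformed TPM with pseudocounts of 1 and 0.1, a replicate block, leaving out each sample and 4 comparisons by library number. Promoter and protein sequences were not used here.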

Additional observations from a re-analysis of the deposited data

Results flagged for a closer look

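The CPM of the 28 named members and the per-sample measures were examined for a sample far from the others of its genotype, in 60 groups of 6 samples. Of these 1 stood out: for mrpl53, elmo2+/+ replicate 3 had 6.58 CPM, and the next highest elmo2+/+ sample had 5.23 CPM. Its gap divided by the range of the group was 0.644, above the critical value of 0.625. Chance alone flags about 1 in 20 groups. In elmo2-/- samples mrpl53 ran from 4.72 to 6.67 CPM, a range that holds this value.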

How the results depend on the processing

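Under every alternative run, 0 members had an adjusted p under 0.05. DESeq2 called 2 genes of the whole table, elmo2 itself (log2 fold change -0.93, adjusted p 0.000166) and 1 other gene, and 2 genes were called in elmo2-/- library numbers 7 and 8 against elmo2+/+ replicates 5 and 6. In that comparison 13 members were higher at an unadjusted edgeR p under 0.05, where 6.17% of all genes were. The members' median log2 fold change there was 0.15 and the ratio of their summed TPM was 1.07. In elmo2-/- library numbers 13 to 16 against elmo2+/+ replicates 1 to 4, 19 members were higher. Against all elmo2+/+ samples, 39 members were higher in library numbers 13 to 16 and 55 in library numbers 7 and 8. The cause of these shifts was not tested. Leaving out 1 sample at a time, between 1 and 4 members had an unadjusted edgeR p under 0.05 (1 without elmo2-/- replicate 4 and 1 without elmo2-/- replicate 5). Of all genes, between 704 of 22387 (without elmo2-/- replicate 5) and 1620 of 22354 (without elmo2-/- replicate 1) did. Between 34 and 60 members were higher. Their median log2 fold change lay between -0.013 and 0.049 and the ratio of summed TPM between 0.969 and 1.003. In limma on log2(TPM + 1), 32 members were higher and 43 lower, where 38.2% of all genes were higher. Samples with the same replicate number were not treated as pairs in the main fit. Their deviations correlated at a mean of 0.16, from -0.25 for number 4 to 0.62 for number 1, with 2 of 6 numbers best matched to themselves. The labels do not say whether such samples share a clutch or a day, and this was not tested. With the replicate number as a block, 48 members were higher, and 3 had an unadjusted edgeR p under 0.05, where 1445 of 22259 genes did. In that fit 0 members had an adjusted p under 0.05, and 0 genes of the whole table were called. For single named members and lists, 797 of 816 alternative values were counted as unchanged. For a member this meant the same sign and the same side of an adjusted p of 0.05, or a change of sign within its SE. For a list it meant a median that moved by less than its spread between samples. A member could thus move by more than its SE and still count, as MRPL47 did from 0.22 to 0.49. Promoter motifs and protein properties were planned and not run, and no promoter window was therefore compared. The members had at least 78 counts in every sample, and the effect of depth on their calls was not tested.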
